A study of Mus musculus with 6 samples.

Results

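The transition zone is the short segment at the base of a cilium, and 9 genes of its MKS and NPHP protein modules were followed here in cells without Edf1. They are Mks1, Tmem67, Tmem231, Tctn1, Tctn2, B9d1, Cc2d2a, Rpgrip1l and Cep290. The members were taken by gene symbol, and all 9 were found among the 22851 symbols of the count table and passed the filter on low counts. RNA was sequenced from radial glial cells, the neural progenitors next to the brain ventricles, isolated from mouse pups at postnatal day 0 to 3 on the C57BL/6J background. The cells were grown in medium with 10% serum and then kept without serum for 6 days, which turns them into multiciliated ependymal cells. One group of 3 libraries came from wild-type (WT) pups. The other group of 3 came from pups with Edf1 knocked out by CRISPR/Cas9 editing, here called the knockout. Edf1 encodes a small transcriptional coactivator that also binds collided ribosomes. The pups themselves carried the edit, so all cell types in a knockout culture came from edited animals. The replicates are called biological, but the number of founder lines and of pups behind each is not given in the sources used here, and p-values measure the spread between these libraries.

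In the transition zone, Y-shaped links join the microtubules of the axoneme to the ciliary membrane and act as a gate for proteins entering and leaving the cilium. The MKS module is rich in membrane proteins (Tmem67, Tmem231, the Tectonics) and B9-domain proteins (Mks1, B9d1), the NPHP module is built around the nephrocystins, and Rpgrip1l and Cep290 are needed for the modules to assemble. Both primary cilia and motile cilia carry this gate, and mutations in its genes cause ciliopathies such as Meckel and Joubert syndromes.

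Total counts ran from 13071766 to 28087006 per library. Edf1 had 82.9 ± 2.85 normalised read counts (CPM, scaled to a common library size) in WT and 11.3 ± 1.72 in the knockout (SD, n = 3), or 13.7% of WT, and its direction matched the label in every library. Motile-cilium markers of ependymal cells were present in both genotypes, with Foxj1 at 788 ± 43.4 CPM in WT against 523 ± 10.3 CPM without Edf1. Of the 8 ependymal markers tested, 7 were called lower, beside 14.2% of all genes tested. The exception was Vim, at 109% of WT and not called. Vim, with 6273 CPM in WT, made up most of the summed level of the 8. Those sums overlapped, at 7472 to 8236 CPM in WT and 7664 to 7877 CPM in the knockout. WT replicate 2 had the smallest total and stood apart by transcript length: across genes, its deviation from the WT mean had a Spearman correlation of -0.47 with transcript length, against 0.31 and 0.40 in WT replicates 1 and 3 and -0.11 to 0.17 in the knockout. Deviations from the mean of 3 libraries sum to 0, so the opposite signs within WT are partly forced. The calls of the members, the ratios between genes and the regulators are given with and without WT replicate 2 where its removal changes them.

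Transcripts of 4 of the 9 genes fell in the knockout and none rose. Tmem67 fell most, to 68.2% of WT, followed by B9d1 (75.2%), Tctn2 (76.2%) and Cc2d2a (87.1%). The other 5 genes were not called: the threshold was an adjusted p-value under 0.05 by the quasi-likelihood test of edgeR. Their knockout levels were 84.8% of WT for Tmem231, 87.7% for Rpgrip1l, 88.1% for Mks1, 90.9% for Tctn1 and 100.7% for Cep290. Over all 14243 genes tested, 14.2% were called lower and 12.7% higher, or 26.9% in either direction. The WT and knockout libraries did not overlap for 6 members, all lower in the knockout, while 22.1% of all genes were apart in that direction. The count of 0 higher members stayed 0 by DESeq2 and limma voom, where 1659 and 1847 of the 14243 genes were called higher. At an unadjusted p-value of 0.05 in edgeR, 6 members were lower and 0 higher. The share of all genes at that unadjusted level is not given here, so nothing is read from those counts. The median log2 fold change of the 9 was -0.20, beside 0.0029 over all genes tested. In bulk RNA, fewer multiciliated cells and less RNA per cell cannot be told apart. Without WT replicate 2, 5 members were called lower (with Rpgrip1l added), where 15.7% of all genes were. Without WT replicate 3, 5 were called (with Tmem231 added), where 13.3% of all genes were. The count was 3, with Cc2d2a lost, without WT replicate 1 (10.9% of all genes), without knockout replicate 2 (9.97%) and at a threshold of 0.01 (8.76%). After per-library trends with GC content and transcript length were removed, 6 were called lower (with Rpgrip1l and Tctn1 added), where 17.6% of all genes were called lower.

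**Figure D1:**
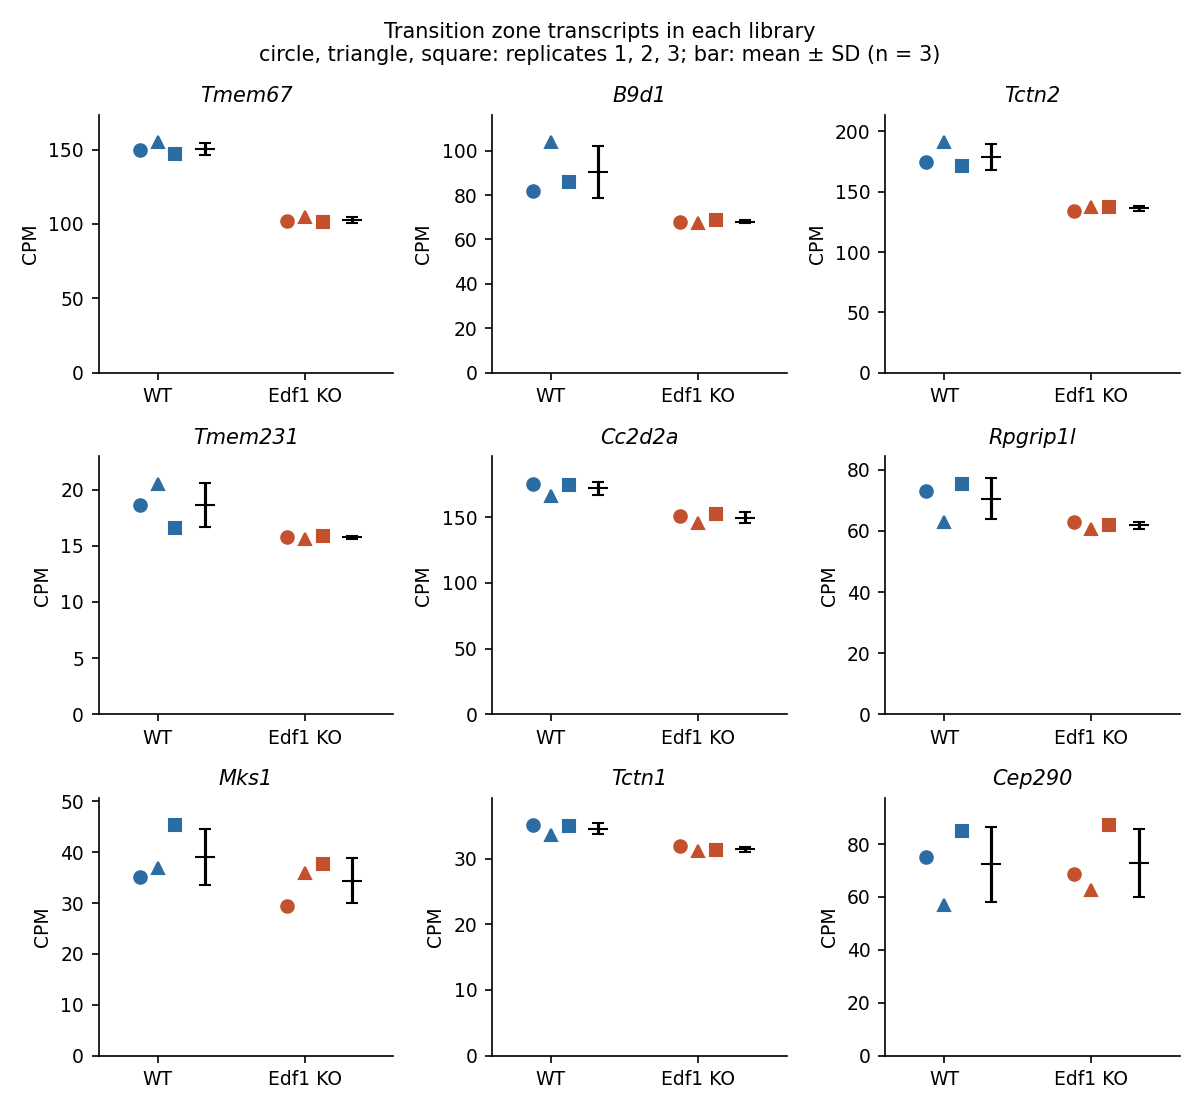
CPM of each of the 9 transition zone genes (y axis from 0) in the WT and Edf1 knockout libraries, one point per library, with mean ± SD (n = 3) in black. Tmem67 is between 147 and 155 CPM in WT and between 101 and 105 in the knockout, while the 2 genotypes overlap for Mks1, Rpgrip1l and Cep290.

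Several of these genes share a sequence feature at their start sites. RFX transcription factors, which regulate many cilium genes, bind a palindromic element called the X-box. The element was searched on both strands as GTNNCCNNNGNAAC in RefSeq promoters (GRCm38.p6), from 250 bases before to 50 bases after each annotated start. RefSeq entries were found for 8 of the 9 genes, the exception being Tmem67. A match was found in 4 of these 8, in Tctn2, Mks1, Tmem231 and Tctn1, while 2.17% of all 32851 promoters of this length hold one. Among the 14546 promoters of genes tested here, 2.89% hold one. The windows of 30 bases around the matches are shown on the strand of the gene, with the match in capitals, so that the element can be compared between these 4 genes.
Tctn2: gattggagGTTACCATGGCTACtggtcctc
Mks1: gcgtctccGTTGCCAGGGGAACgaggcacc
Tmem231: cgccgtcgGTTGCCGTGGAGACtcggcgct
Tctn1: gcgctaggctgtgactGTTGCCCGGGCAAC
The windows lie at chr5:124598679-124598708 (plus strand), chr11:87853183-87853212 (plus), chr8:111933781-111933810 (minus) and chr5:122264411-122264440 (minus). With the start base as 0, the matches run from -62 to -49 in Tctn2, from -24 to -11 in Mks1, from 11 to 24 in Tmem231 and from 36 to 49 in Tctn1. Those of Mks1 and Tctn1 read as a match on both strands. Those of Tctn2 and Tmem231 match only on the strand opposite to the gene, so their capitals show the reverse complement of the pattern. Of the 4, Tctn2 was called lower, and the other 3 did not pass the threshold. Their 95% intervals reach log2 fold changes of -0.41 for Mks1, -0.43 for Tmem231 and -0.28 for Tctn1, beside -0.51 to -0.27 for Tctn2. Overlap of intervals is not a test of a difference, and the fit did not test the 4 genes against each other. The ratio of Tctn1 to Tctn2 in each library is given below. B9d1 and Cc2d2a, both called lower, held no match in this window.

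Looser and other motifs were searched in the same promoters. The shorter spacing GTNNCCNNGNAAC was found in none of the 8 and in 1.56% of all promoters. The half-element GTTGCC, which lies inside some of the matches above, was found in 5 of the 8 (Mks1, Tmem231, Tctn1, Tctn2 and B9d1) and in 12.5% of all promoters. The forkhead motif GTAAACA, of the kind that Foxj1 binds, was found in none of the 8 and in 3.65% of all promoters. Among the other transition zone genes introduced below, 20 have RefSeq promoters, and the longer X-box form was found in 5 of them, B9d2, Tmem216, Tmem237, Ahi1 and Nphp4. The 250 bases before the starts of Tctn2 and Mks1, the genes whose match lies before the start, are printed to show the matches in context, again with the X-box match in capitals.
Tctn2: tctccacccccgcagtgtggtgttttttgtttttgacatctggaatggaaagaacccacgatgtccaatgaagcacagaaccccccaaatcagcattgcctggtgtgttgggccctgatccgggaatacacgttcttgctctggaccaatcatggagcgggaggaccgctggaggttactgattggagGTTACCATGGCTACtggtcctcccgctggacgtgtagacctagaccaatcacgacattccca
Mks1: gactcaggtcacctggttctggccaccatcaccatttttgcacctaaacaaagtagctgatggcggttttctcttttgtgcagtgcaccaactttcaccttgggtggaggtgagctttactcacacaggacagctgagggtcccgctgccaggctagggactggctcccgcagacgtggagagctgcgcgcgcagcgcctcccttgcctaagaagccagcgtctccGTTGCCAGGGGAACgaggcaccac
These are chr5:124598499-124598748 and chr11:87852965-87853214 of GRCm38.p6, both on the plus strand.

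Tmem67, which encodes meckelin, a receptor-like membrane protein of the MKS module, showed the largest difference among the members. The gene lies at chr4:12039355-12090020 (GRCm38, minus strand), and its principal transcript has 28 exons. It had 150, 155 and 147 CPM in WT replicates 1, 2 and 3 and 102, 105 and 101 CPM in the knockout. The lowest WT library was above the highest knockout library by a wide margin compared with the SDs of 3.91 and 1.74 CPM. The log2 fold change was -0.55 (SE 0.051, 95% interval -0.66 to -0.44), and edgeR gave an adjusted p-value of 7.00e-06. It passed in all 15 alternatives, at -0.57 to -0.53. On the opposite strand, Gm11842 and Rbm12b2 overlap 5.42% of the exon bases of Tmem67, which leaves some of its reads uncertain if the counting ignored strand. Rbm12b2 did not pass the test (log2 fold change 0.016, adjusted p-value 0.914 by edgeR).

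Tmem231, another membrane protein of the MKS module, has its gene at chr8:111912011-111933881 (minus strand). It was among the least abundant, with 18.6, 20.5 and 16.6 CPM in WT and 15.8, 15.6 and 15.9 CPM in the knockout. All knockout libraries were below all WT libraries, but the lowest WT library was only slightly above them. The log2 fold change of -0.23 (SE 0.092, 95% interval -0.43 to -0.031) did not pass after adjustment (adjusted p-value 0.0834 by edgeR). It passed when WT replicate 3, the lowest WT library, was left out, at -0.30 (adjusted p-value 0.0368 by edgeR), and in none of the other alternatives (adjusted p-values 0.0368 to 0.189 over all).

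The Tectonics Tctn1 and Tctn2 are related proteins with a signal peptide that act with the membrane proteins of the gate. Tctn2 (chr5:124598749-124627738, plus strand) had 175, 191 and 171 CPM in WT and 134, 138 and 138 CPM in the knockout. The 2 groups were far apart, and the knockout libraries differed from each other by less than the WT libraries did. Its fold change on the log2 scale was -0.39 (SE 0.054; edgeR adjusted p-value 0.000192), and it passed in all 15 alternatives. Tctn1 (chr5:122237848-122264460, minus strand) had 35.1, 33.6 and 34.975 CPM in WT and 31.8, 31.1 and 31.3 CPM in the knockout. Its groups did not overlap, but the difference was small, with a log2 fold change of -0.14 (SE 0.066, 95% interval -0.28 to 0.0031, adjusted p-value 0.139 by edgeR). The GC and length correction made it -0.23, with an adjusted p-value of 0.0111 by edgeR, and the remaining alternatives left it above the threshold. In Tctn1, 25.5% of exon bases are overlapped on the opposite strand, by Gm15481 and the proton channel gene Hvcn1. Hvcn1 itself fell (log2 fold change -0.38, adjusted p-value 0.00273 by edgeR), so the level of Tctn1 is uncertain if strand was not used in counting.

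The balance between the Tectonics was also read within each library. The log2 ratio of Tctn1 to Tctn2 CPM was -2.32, -2.50 and -2.29 in WT against -2.07, -2.15 and -2.14 in the knockout, so Tctn2 was the more counted of the pair by a smaller margin in the knockout. For Tctn3 to Tctn2 the ratio was -2.38, -2.45 and -2.39 in WT against -2.07, -2.33 and -2.30 in the knockout. Neither pair of groups overlapped, with or without WT replicate 2. Without it, the mean difference moved from 0.25 to 0.19 for Tctn1 to Tctn2 and from 0.17 to 0.15 for Tctn3 to Tctn2. An exact two-sided permutation test without that library gave unadjusted p = 0.1 and 0.3, where 0.1 is the smallest possible. With all 6 libraries, the exact two-sided permutation test gave p = 0.1 for each, the smallest value that 3 against 3 libraries allow. After adjustment over the 6 ratios computed this was 0.2. None of these ratios was planned beforehand, so their p-values are descriptive.

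B9d1 and Mks1 encode B9-domain proteins that sit together in the MKS module. B9d1 (chr11:61505144-61512931, plus strand) had 82.0, 104 and 85.7 CPM in WT and 68.0, 67.2 and 68.9 CPM in the knockout. The knockout libraries lay close together and below all WT libraries, and WT replicate 2 was the highest. The log2 fold change was -0.40 (SE 0.079, adjusted p-value 0.00233 by edgeR). Without WT replicate 2 it was -0.30 (adjusted p-value 0.000127 by edgeR), and it passed in all 15 alternatives. Mks1 (chr11:87853215-87863803, plus strand) had 35.1, 36.8 and 45.3 CPM in WT and 29.5, 36.0 and 37.8 CPM in the knockout. These ranges overlapped, and the log2 fold change of -0.18 (SE 0.11, 95% interval -0.41 to 0.061) did not pass (adjusted p-value 0.262 by edgeR, 0.0844 to 0.745 over the alternatives). Its size rested on single libraries, at -0.052 without WT replicate 3 and -0.081 without knockout replicate 1.

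Cc2d2a encodes a large coiled-coil and C2-domain protein of the MKS module. The gene is at chr5:43662346-43740972 (plus strand), with 40 exons in the principal transcript. It had 175, 166 and 174 CPM in WT and 151, 145 and 153 CPM in the knockout. The groups did not overlap, though the fall was modest: a log2 fold change of -0.20 (SE 0.050, 95% interval -0.31 to -0.092, adjusted p-value 0.01002 by edgeR). The call was lost when WT replicate 1 was left out (-0.18, adjusted p-value 0.0521 by edgeR). It was also lost when the second knockout library was left out (-0.18, adjusted p-value 0.0613 by edgeR), and at a threshold of 0.01. Its adjusted p-values ran from 0.000164 to 0.0613 over all alternatives.

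Rpgrip1l and Cep290 encode large scaffold proteins on which the rest of the gate is assembled, and their principal transcripts are the longest of the 9. Rpgrip1l (chr8:91217030-91313262, minus strand) had 73.2, 62.9 and 75.4 CPM in WT and 63.1, 60.6 and 61.8 CPM in the knockout. WT replicate 2 lay within the knockout range, and the other WT libraries lay above it. The log2 fold change of -0.19 (SE 0.069) missed the threshold (adjusted p-value 0.0545 by edgeR). It was -0.27 without WT replicate 2 (adjusted p-value 0.000512 by edgeR) and -0.32 with the GC and length correction (adjusted p-value 4.48e-05 by edgeR). limma voom also called it, at -0.20 (adjusted p-value 0.0483). In all, 4 of the 15 alternatives called it, and its edgeR adjusted p-value rose to 0.185 without WT replicate 1 (-0.16) and 0.181 without WT replicate 3 (-0.14).

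Cep290 (chr10:100487558-100574840, plus strand) has 54 exons in its principal transcript and encodes a protein of the links between microtubules and membrane. It had 75.0, 56.8 and 85.0 CPM in WT and 68.7, 62.5 and 87.1 CPM in the knockout. The spread within each genotype was larger than the difference between them. The log2 fold change was 0.0085 (SE 0.13, 95% interval -0.28 to 0.30, adjusted p-value 0.971 by edgeR), an interval that includes the size of the fall seen in Cc2d2a and excludes that of Tmem67. Its sign was not stable: it was -0.16 with the GC and length correction, -0.12 without WT replicate 2 and -0.14 without knockout replicate 3, none of them past the threshold (adjusted p-values 0.130 to 0.979 over all alternatives). A gene on the opposite strand, 4930430F08Rik, overlaps 7.58% of its exon bases and did not pass the test (log2 fold change 0.0087, adjusted p-value 0.948 by edgeR). The log2 ratio of Tmem67 to Cep290 CPM was 0.999, 1.45 and 0.79 in WT against 0.57, 0.74 and 0.22 in the knockout, ranges that did not overlap (exact two-sided permutation test, p = 0.1, adjusted 0.2). This unplanned pair joins the members with the lowest and the highest log2 fold change, so a difference in its ratio is not separate evidence. The ratios of B9d1 to Cep290 and of B9d1 to Mks1 overlapped between genotypes (p = 0.2 by the same exact test, adjusted 0.24). Without WT replicate 2, a setting chosen after seeing the data, the mean difference in the Tmem67 to Cep290 ratio moved from -0.57 to -0.38 (exact p = 0.2, unadjusted). That of B9d1 to Cep290 moved from -0.42 to -0.15, and that of B9d1 to Mks1 from -0.22 to -0.080 (exact p = 0.5 each, unadjusted).

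Transcript length moved with WT replicate 2 within the members themselves. B9d1, with the shortest principal transcript (817 bases), stood in that library at 124% of the mean of the other WT libraries. Rpgrip1l (7009 bases) stood at 84.7% and Cep290 (8211 bases) at 71.0%. Both also had the lowest GC content of the 9 principal transcripts, 41.6% and 38.7%, against 54.8% for B9d1. Length and GC content were not told apart here. Tmem67, at 3456 bases, stood at 104%, and Mks1 departed from the order, with 91.6% at 2499 bases. The part that this library plays in the calls is measured by leaving it out: Rpgrip1l gained its call, and the calls of Tmem67, Tctn2, B9d1 and Cc2d2a remained.

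**Figure D2:**
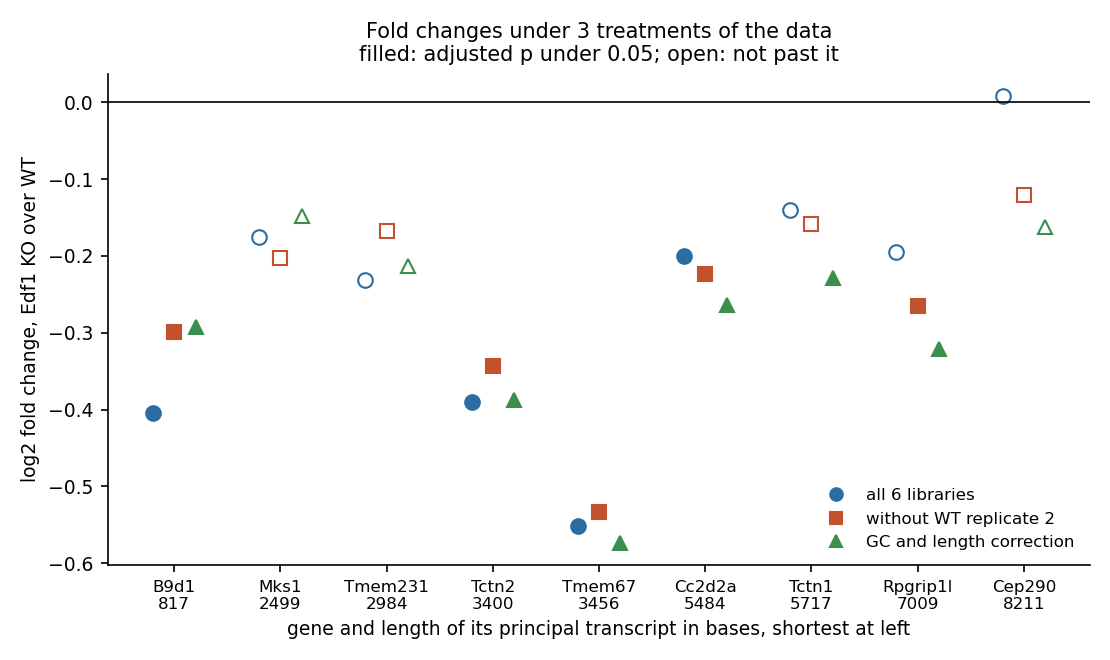
Log2 fold change (knockout over WT, y axis) of the 9 genes in order of transcript length, from all 6 libraries (circles), without WT replicate 2 (squares) and with the GC and length correction (triangles). Filled symbols have an adjusted p-value under 0.05 in edgeR. Tmem67, Tctn2, B9d1 and Cc2d2a are filled in all 3, Rpgrip1l in the last 2 and Tctn1 in the last only.

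Levels of the 9 genes were compared per kilobase of the principal transcript, since longer transcripts collect more reads. In WT, B9d1 was the most abundant at 111 ± 14.2 CPM per kilobase, followed by Tctn2 (52.6 ± 3.09), Tmem67 (43.6 ± 1.13), Cc2d2a (31.3 ± 0.91) and Mks1 (15.6 ± 2.18). Rpgrip1l (10.1 ± 0.95) and Cep290 (8.80 ± 1.74) did not differ beyond their SDs, nor did Tmem231 (6.23 ± 0.66) and Tctn1 (6.05 ± 0.14). In the knockout the first 5 kept this order, with B9d1 at 83.3 ± 0.99 and Tctn2 at 40.1 ± 0.67 CPM per kilobase. Tmem67 (29.7 ± 0.50) came closer to Cc2d2a (27.3 ± 0.71), and the 4 genes called lower were the 4 most abundant per kilobase. In WT they also had the highest CPM before scaling by length, 90.4 or more against 72.3 or less, and more reads make a call easier. Tmem231, which was not called, had a larger log2 fold change (-0.23) than Cc2d2a (-0.20), so no link between level and fall is read from this. The level assumes that the principal isoform is the one expressed.

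The rest of the gate was described from a list of 25 further genes, all of which were tested. Of these, 11 were called lower and 0 higher, with a median log2 fold change of -0.22. Over all genes tested, 14.2% were called lower and 12.7% higher. No gene of the list was called higher by DESeq2 or limma voom, and none was higher at an unadjusted p-value of 0.05 in edgeR. The share of all genes at that unadjusted level is not given here. Within the MKS module, 5 of 10 further genes were called lower. The membrane protein gene Tmem107 had 113, 121 and 102 CPM in WT and 60.2, 63.0 and 69.3 CPM in the knockout. On the log2 scale it fell by 0.80 (SE 0.073; edgeR adjusted p-value 7.06e-06). That is a larger fold change than that of Tmem67. Tmem216 and Tmem138 had -0.48 and -0.46, and Tmem218 and Tmem237 had -0.23 and -0.22. The 5 others, which did not pass, were B9d2 (-0.34), Tmem17 (-0.32), Tctn3 (-0.22), Cspp1 (-0.17) and Ahi1 (0.12). In Tmem138, 39.4% of exon bases are overlapped on the opposite strand, so its level is uncertain if strand was not used.

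In the NPHP module, 4 of 5 genes were called lower, beside 14.2% of all genes tested. Nphp4, which encodes a nephrocystin, had 36.7, 34.3 and 35.1 CPM in WT and 22.1, 22.7 and 23.2 CPM in the knockout. The groups did not overlap, and it fell by 0.64 (SE 0.070) on the log2 scale. Rpgr and Iqcb1, which encode partners of the nephrocystins and of Cep290, had -0.24 and -0.21 (adjusted p-values 0.0114 and 0.0363 by edgeR). Rpgrip1, known mainly from photoreceptors, averaged 1.23 CPM in WT against 1.65 CPM without Edf1 and did not pass.

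Among genes for transition zone assembly, Cibar2 and Cby1 were called lower and 4 others were not, beside 14.2% of all genes called lower. Cby1 encodes Chibby, a basal body protein, and Cibar1 and Cibar2 encode its membrane-bending BAR-domain partners. Cibar2 had 19.4, 23.3 and 22.4 CPM in WT and 10.1, 8.25 and 10.7 CPM in the knockout. The groups were far apart, and it fell by 1.15 (SE 0.11) on the log2 scale. Cby1 had 171, 206 and 172 CPM in WT and 104, 106 and 103 CPM in the knockout, and fell by 0.81 (SE 0.070) on the log2 scale. Cibar1, the paralog of Cibar2, averaged 76.0 CPM in WT against 74.4 CPM without Edf1 (log2 fold change -0.030, 95% interval -0.16 to 0.10). Dzip1, Dzip1l and Cplane1 had values of 0.021, 0.022 and -0.027, none past the threshold.

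The inversin compartment, which lies just beyond the transition zone in primary cilia, was represented by 4 genes, Invs and Nek8 among them. None of the 4 was called in edgeR, and none was under an unadjusted p-value of 0.05 or called by DESeq2 or limma voom. Over all genes tested, 26.9% were called in either direction in edgeR. With only 4 genes, nothing is read from this about the compartment. Their log2 fold changes ran from -0.039 for Invs (95% interval -0.21 to 0.14) to 0.15 for Nek8 (95% interval -0.018 to 0.32).

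**Figure D3:**
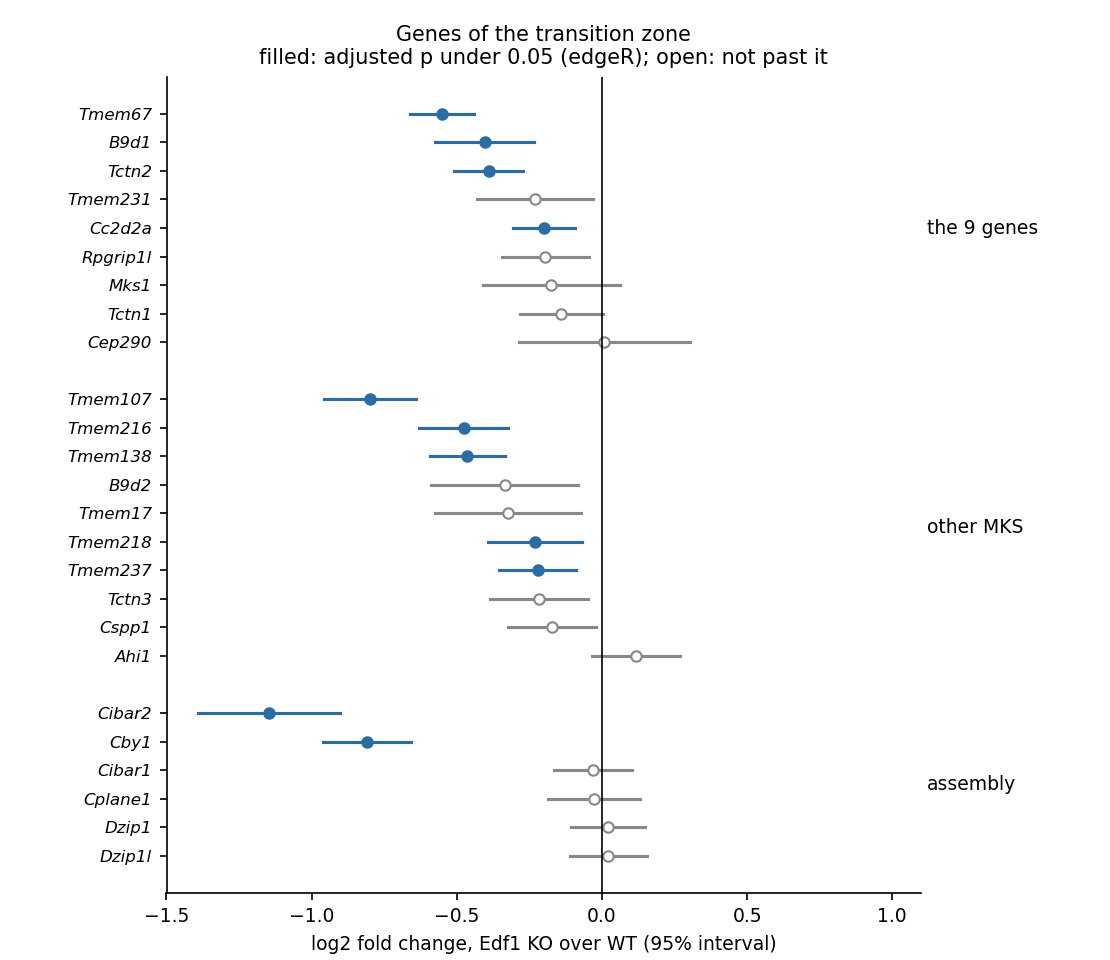
Log2 fold change of the knockout over WT (x axis) with its 95% interval for the 9 genes, 10 further genes of the MKS module and 6 genes for transition zone assembly. Filled points have an adjusted p-value under 0.05 in edgeR. Among the further genes, 5 of the MKS module and 2 for assembly (Cibar2 and Cby1) are filled, all to the left of 0.

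The members were set beside other cilium gene groups by counts and medians, with no test of the differences between groups. Over all genes tested, 14.2% were called lower. Of 42 genes of the motile axoneme, 37 were called lower, with a median log2 fold change of -0.65. Of 26 intraflagellar transport genes, 21 were called lower (median -0.34), of 9 BBSome genes 6 (median -0.28) and of 6 distal appendage genes 3 (median -0.20). Cep83, needed to build the distal appendages that dock the basal body to the membrane, fell by 0.50 on the log2 scale, and Cep164 of the same structure fell by 0.25. The median of the 9 members, -0.20, was closer to the distal appendage and BBSome medians than to that of the motile axoneme. The summed level of the 9 genes was 819 to 835 CPM in WT and 660 to 694 CPM in the knockout, and that of the 42 axoneme genes was 5393 to 5442 and 3341 to 3697 CPM.

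**Figure D4:**
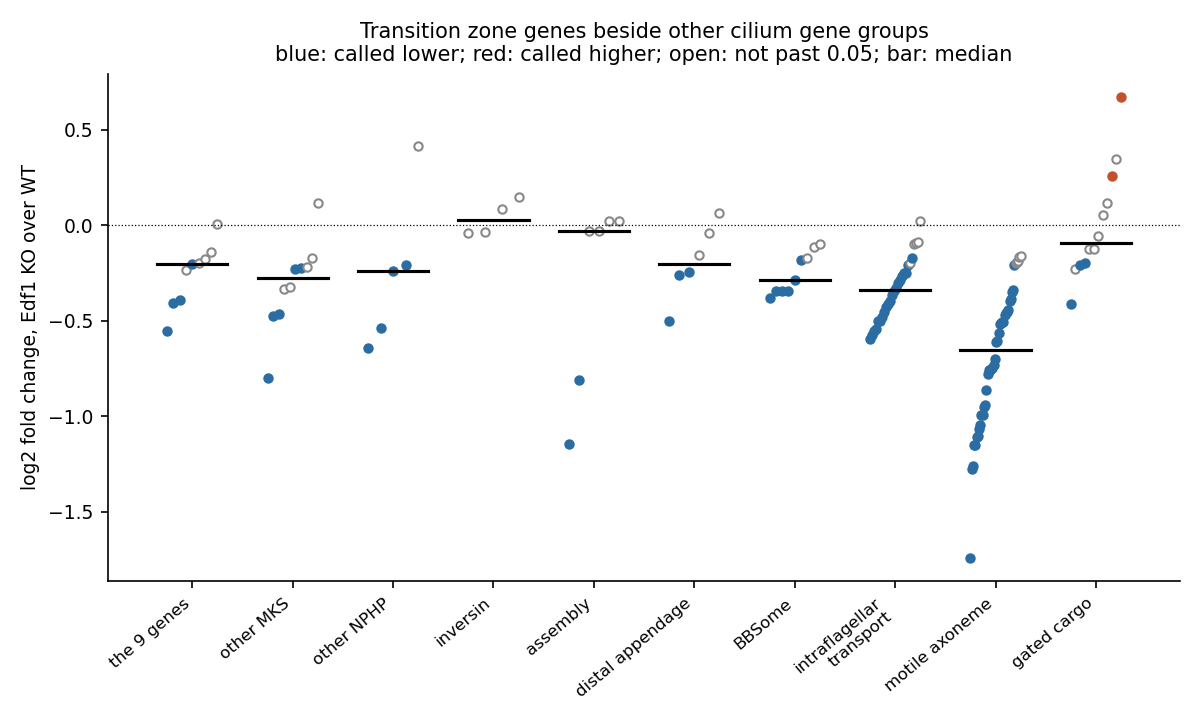
Log2 fold change of the knockout over WT (y axis) for each gene of the transition zone groups and of other cilium gene groups, with the median of each group as a bar. The median is -0.20 for the 9 genes and -0.65 for the motile axoneme.

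Regulators of cilium genes gave the following values. Foxj1, which drives motile cilium genes, had a log2 fold change of -0.59 (SE 0.049), close to that of Tmem67. The log2 ratio of Tmem67 to Foxj1 CPM was -2.36, -2.44 and -2.37 in WT against -2.34, -2.31 and -2.40 in the knockout, overlapping ranges with a difference of 0.037 (exact two-sided permutation test, p = 0.4, adjusted 0.4 over 6 ratios). Rfx2 had -0.24 (SE 0.061, adjusted p-value 0.0128 by edgeR), and Rfx3 had 0.0020 (SE 0.13, adjusted p-value 0.992 by edgeR). Without WT replicate 2, Rfx3 had -0.14 (adjusted p-value 0.208 by edgeR). Among 9305 other genes with a mean log2 CPM of at least 4, the 5 whose log2 CPM was most like the mean standardised profile of the 9 over the 6 libraries were Dnah2, Dnah3, 2700049A03Rik, Nras and Dnah6, with Pearson correlations of 0.994 to 0.996. Dnah2, Dnah3 and Dnah6 encode axonemal dynein heavy chains, Nras a small GTPase, and 2700049A03Rik the centriole protein Talpid3. Among the members, correlation with the mean of the other 8 was highest for Cc2d2a (0.97) and lowest for Cep290 (0.035). These correlations are over the same 6 libraries and include the difference between genotypes.

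Genes whose products depend on the gate were called in both directions. Of 12 genes for ciliary membrane cargo and its carriers, 3 were called lower and 2 higher, with a median of -0.091. These shares are near the 14.2% lower and 12.7% higher of all genes tested, and nothing is read from them about the group. Tulp3, an adaptor that brings membrane receptors into the cilium, was at 107 ± 3.02 CPM in WT against 80.3 ± 0.93 without Edf1, and fell by 0.41 (SE 0.053) on the log2 scale. Ptch1, the hedgehog receptor and itself a hedgehog target, rose by 0.67 (SE 0.090) on the log2 scale, with 198 ± 32.1 CPM in WT against 318 ± 9.22. In the list of 5 hedgehog targets, 4 were called higher, with Hhip at 2.03. Hhip had 4 to 6 counts in each WT library and 17 to 28 in the knockout libraries.

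Some markers of other cell types also differed between the genotypes. For comparison with the counts that follow, 14.2% of all genes tested were called lower and 12.7% higher. Of 10 microglial genes, 9 were called lower, with a summed level of 2002 to 2165 CPM in WT and 1347 to 1387 CPM in the knockout. Of 11 fibroblast, mural and endothelial genes, all 7 tested were called higher, with sums of 564 to 606 CPM in WT and 727 to 814 CPM in the knockout. The endothelial genes Pecam1, Cdh5 and Cldn5 were near 0, with Cldn5 at or under 3 counts in every library. Of 9 radial glia and astrocyte genes, 3 were called higher and 1 lower, with sums of 3780 to 3971 CPM in WT and 4160 to 4321 CPM in the knockout. Neuronal genes numbered 8, of which 7 were tested, with 2 called lower and 0 higher. Tubb3 stood at 56.4% of its WT level, and Dcx, with 20 counts or fewer in each library, at 32.2%. The list was mixed: of the 7 tested, 5 had log2 fold changes below 0. Syt1 and Elavl3 went the other way, at 140% and 141% of WT, and were not called. Map2, which averaged 260 CPM in WT and was not called, made up most of the neuronal sum. That sum overlapped between genotypes, ranging over 253 to 330 CPM for the WT libraries and 273 to 290 CPM for the knockout libraries. Whether a change in the mix of cells has a part in the lower transition zone transcripts was not tested.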

How the data were processed

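Radial glial cell cultures were induced for 6 days and RNA was read from 3 WT and 3 Edf1 knockout libraries. The authors deposited 1 table of raw read counts per gene symbol, read as counts from its whole numbers. FastQC 0.11.2, cutadapt 1.11, HISAT2 2.1.0 and the build GRCm38 are named in the submitters' processing notes. The counting program, annotation and use of strand are not given in the sources used here. Columns were matched to samples by genotype and replicate number.

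Counts were analysed in R 4.3.3. After filterByExpr of edgeR 4.0.16, 14243 genes were tested with TMM factors (0.985 to 1.01) and edgeR's quasi-likelihood test of knockout against WT, p-values being adjusted by Benjamini-Hochberg over all 14243 and called under 0.05. Standard errors are the log2 fold change over the square root of F. CPM uses TMM-scaled library sizes, and log2 CPM a prior count of 2. A log2 fold change is knockout over WT throughout. Positions, transcript lengths and exon overlaps came from GENCODE M21 (GRCm38), with the principal protein-coding transcript of each gene. Alternatives used DESeq2 1.42.0, limma 3.58.1 voom, other scalings and filters, a replicate block, each library left out, a threshold of 0.01 and a GC and length correction by natural splines with 4 degrees of freedom. Lengths were found for 99.0% of tested genes. The fits were tested on simulated counts with known changes.

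The members and lists were chosen with earlier results of these data known. Named genes are the 9 members, Edf1, Foxj1, Rfx2, Rfx3, every called gene of the further transition zone list, the lowest and highest called gene of the cargo, distal appendage and hedgehog lists, and the 5 genes with the most similar profile. Other genes were named after their values were seen. Results for some genes that this rule selects are not reported here.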

Additional observations from a re-analysis of the deposited data

How the results depend on the processing

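Tmem67, Tctn2 and B9d1 were called lower under all 15 alternatives run. The count of members called lower was 4 in the reported fit, 3 to 5 when 1 library was left out, 3 at a threshold of 0.01 and 6 with the GC and length correction. The share of all genes called lower was, in turn, 14.2%, 9.97% to 15.7%, 8.76% and 17.6%. That correction moved the median of the members from -0.20 to -0.26 and that of the BBSome genes from -0.28 to -0.25, and gave Cep290 -0.16. Leaving out 1 library gave Cep290 values from -0.14 to 0.14 (-0.12 without WT replicate 2) and Mks1 values from -0.25 to -0.052. Rfx3 turned from 0.0020 to -0.14 without WT replicate 2, a setting chosen after seeing the data. The threshold of 0.01 lowered the count of further transition zone genes called lower from 11 to 7, and leaving out 1 library gave 8 to 13. The shares of all genes under these settings are those given above. Medians over the fits that each left out 1 library ran from -0.36 to -0.30 for intraflagellar transport, -0.30 to -0.25 for the BBSome, -0.68 to -0.61 for the motile axoneme and -0.11 to -0.053 for the gated cargo. The cause was not tested. No scaling moved the median of all genes past 0.016.

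Deviations from the group mean correlated at only 0.069, 0.060 and 0.037 between a WT library and the knockout library of the same number, so no pairing was assumed. With the replicate number as a block, 5 members were called lower, with Rpgrip1l added (-0.19, adjusted p-value 0.0379 by edgeR), where 14.8% of all genes were. Rpgrip1 and Hhip were tested at low counts, and 3 libraries per group cannot give an exact permutation p-value under 0.1.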
